A study of Mus musculus with 192 samples.

Results

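This report describes 52 genes of DNA replication in single blood-forming progenitor cells of the mouse, and how their messages followed the surface signals and the light scatter that a cell sorter recorded for each cell. The genes were taken by symbol and kept where they had 10 or more molecules over all cells, which all 52 had, out of 20764 genes counted. They were measured in 192 single cells of C57BL/6 mice, 8 to 16 weeks old, taken from marrow enriched for cKit and labelled LSK, the gate that lacks lineage markers and carries Sca-1 and cKit. They carried no treatment, made 1 group, and were processed as 2 library pools of 96 cells. No label names an animal, so the cells count as 1 biological sample. No test between animals was possible, and each 95% interval below covers counting error only, not the spread between cells or animals.

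Messages were counted as unique molecular identifiers (UMIs), with an adapted CEL-seq2 protocol that reads the poly(A) end of each transcript. One cell with 708 gene UMIs, under 20% of its pool's median, was left out, and 191 cells remained, with 3927 to 49372 gene UMIs and a median of 17715. All 11 markers of the gate and of early progenitors were present, Kit in 98.4% of cells and Cd34 in 95.3%. Ly6a, the gene of Sca-1 that defines the gate, was sparse, with 161 UMIs in 37.7% of cells, and Slamf1, the gene of CD150, had 17 UMIs in all. Markers of other cell types were low in sum over all cells, at 41.8 to 638.6 CPM (UMIs per 1000000 gene UMIs) for each of 5 lists. Single cells were far above these sums, up to 9711 CPM for the neutrophil and monocyte list and 5124 CPM for the erythroid list. In addition, 1 cell held 66.2% of the B cell marker UMIs. The same 96 cell indices were used in both pools.

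Before a cell divides it copies its genome once. Origins are licensed in G1, when the origin recognition complex, Cdc6 and Cdt1 load the ring of Mcm2 to Mcm7, and they fire in S phase, when kinases recruit Cdc45 and the GINS complex to turn that ring into an active helicase. Many of these genes are targets of the E2F transcription factors, so their messages accumulate together at the passage from G1 to S. Most long-term stem cells of the marrow divide rarely, while progenitors that carry CD135 (Flt3) or CD127 (the interleukin 7 receptor) feed the lymphoid lineages. CD150 marks stem cells and the progenitors of megakaryocytes and red cells, and forward scatter is commonly read as a measure of cell size.

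The 52 genes together held 13680 UMIs, or 0.369% of all gene UMIs. In single cells this summed share, called the replication share below, was lowest at 0.0374%, had a median of 0.195% and was highest at 1.18%. The cell at 1.18% was also the cell that held 66.2% of the B cell marker UMIs. Its CD127 signal was 29634.6, and its cKit signal was the lowest of all cells kept. The replication share was unevenly spread: the 19 cells with the highest shares held 35.7% of the replication UMIs and 14.6% of all gene UMIs. A share above 0.5% was found in 36 of 191 cells. The median was 0.208% in pool 1 and 0.183% in pool 2.

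Pcna, the sliding clamp that tethers the polymerases to DNA, was the most counted member with 1611 UMIs, 11.8% of the sum, in 97.9% of cells. That count is uncertain. The processed copy Pcna-ps2 was listed with 1531 UMIs, equal to the Pcna count in 112 of 191 cells and within 1 UMI of it in 161 cells, so the 2 entries cannot be treated as separate measurements. Mcm7 followed with 967 UMIs and Mcm6 with 876.0. At the other end stood Orc1, the regulated subunit of the origin recognition complex, with 10 UMIs, and the cyclin Ccne1 with 15 UMIs, too few for any ratio to be read. By role, polymerases with clamp and primase held 33.1% of the replication UMIs, and the loading factors with the Mcm ring 31.5%. The other roles held between 2.39% and 10.2% each. Exons of 11 of the 52 genes, Mcm7, Lig1 and Fen1 among them, overlapped a counted gene on the opposite strand and none overlapped one on the same strand; whether the counting used strand is not given in the sources used here.

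The members moved together from cell to cell. For each gene, the cells were ranked by the share of the other 51 members, and the 32 highest and 32 lowest cells of each pool were compared. Among the 48 members with at least 50 UMIs over both classes, 47 were at least 1.5-fold higher in the high class, against 15.1% of all genes for the replication share as a whole, and 46 were at least 2-fold higher. All 52 were chosen as genes of 1 process, so this is a description. Pclaf, the PCNA-associated factor, had the largest ratio, at 179.2 against 5.97 CPM, a log2 difference of 4.91 (3.77 to 6.37). Rrm2 and Tk1, which make deoxynucleotides, stood 4.05 apart each, with 82.3 against 4.96 and 98.2 against 5.93 CPM. Mcm5 had 229.2 against 17.8 CPM, a log2 difference of 3.68 (3.002 to 4.45). The abundant Mcm7 and Pcna varied less, by 1.83 (1.54 to 2.12) and 1.72 (1.51 to 1.94). Pcna was detected in 96.9% of the cells of both classes, so it differed in amount, whereas Pclaf was detected in 40.6% and 7.81%. Chaf1b, a subunit of the chromatin assembly factor, had the smallest difference, 0.56 (-0.04 to 1.18), with an interval that spans 0.

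Cells were then sorted by each of 9 signals, and in each pool the 32 highest, 32 middle and 32 lowest cells formed the upper, middle and lower class. A gene was called where the 2 outer classes differed at least 1.5-fold with at least 50 UMIs between them.

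Forward scatter separated the replication genes far more than any surface label did. The summed level was 5596 CPM in the upper class, 2602 CPM in the middle class and 1909 CPM in the lower class, a 2.93-fold ratio of the outer classes and a log2 difference of 1.55 (1.48 to 1.62). It was 1.65 in pool 1 and 1.43 in pool 2. In the lower class the replication share ran from 0.0374% to 0.761% with a median of 0.146%. In the upper class it ran from 0.115% to 1.18% with a median of 0.446%, and the cell at 1.18% was the one rich in B cell markers. The classes overlapped, yet 28 of the 64 upper cells and 3 of the 64 lower cells were above 0.5%. The middle class, with a median of 0.160% and 5 of 63 cells above 0.5%, lay near the lower one.

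**Figure D1:**
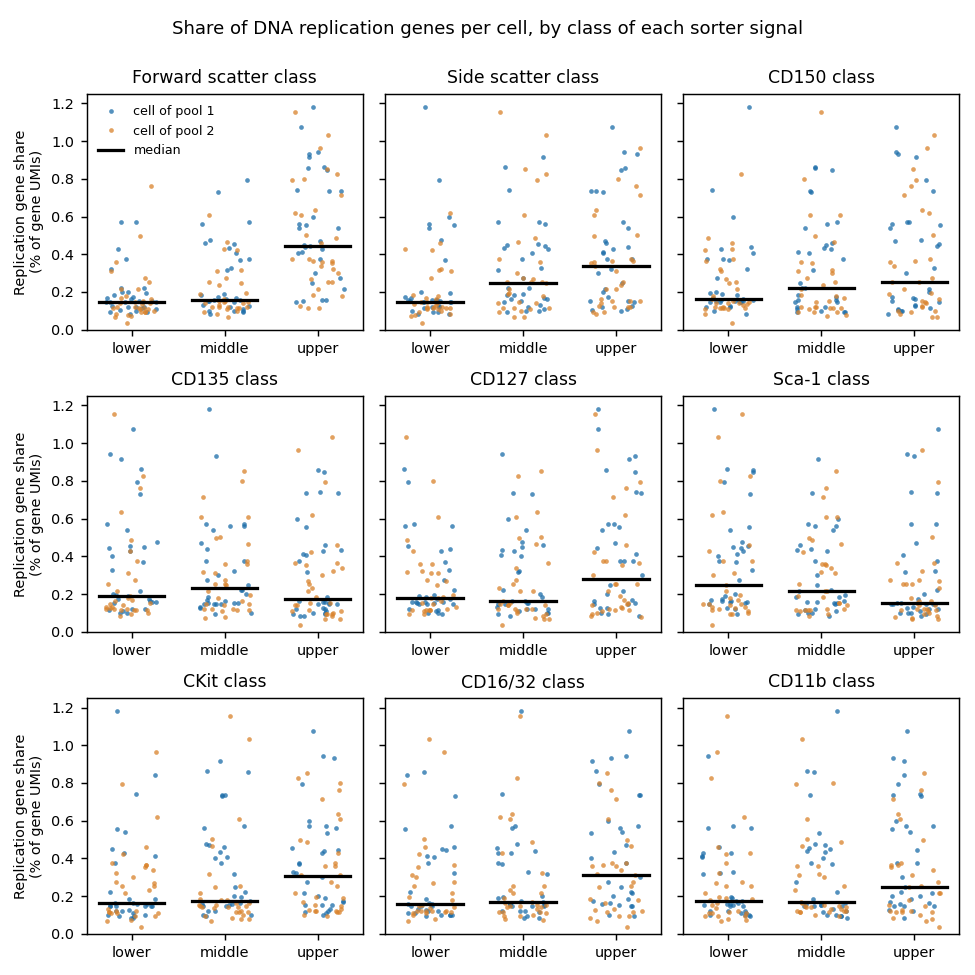
Replication share of each of 191 cells (percent of gene UMIs, vertical axis) in the lower, middle and upper class of each sorter signal, with the median as a bar and the library pools in 2 colours. The median is 0.446% in the upper class of forward scatter, while the 3 classes of CD135 have medians of 0.187%, 0.233% and 0.174%.

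Split more finely, the change came late in the range. In 6 classes of forward scatter, of 31 or 32 cells, the summed level was 1888, 2206, 2143, 2758, 4424 and 6657 CPM from the smallest to the largest cells, and the median share was 0.133%, 0.152%, 0.153%, 0.184%, 0.369% and 0.609%. Across 191 cells, which share 2 libraries, Spearman's rho between forward scatter and the replication share was 0.57, and it was 0.58 and 0.57 in the 2 pools. Depth moved with both: the median gene UMIs were 15126.5, 18074 and 22426.5 in the lower, middle and upper class, and rho was 0.54 between depth and share. Within 3 classes of depth the log2 difference between the forward scatter classes was 0.99 (0.79 to 1.17), 1.28 (1.13 to 1.42) and 1.25 (1.12 to 1.38) from the shallowest to the deepest cells. Forward scatter, depth and replication share thus moved together, and their parts cannot be told apart. Summed neutrophil and monocyte markers were 389.0 CPM in the lower and 831.1 CPM in the upper class, with medians per cell of 358.6 and 365.0 CPM. Of the 13 cells above 2000 CPM of the markers of any other cell type, 10 were in the upper class of forward scatter. The 13 cells had a median replication share of 0.375%, and shares from 0.0981% to 1.18%. Without these 13 cells, an alternative added after the data were seen, the forward scatter difference was 1.57.

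**Figure D2:**
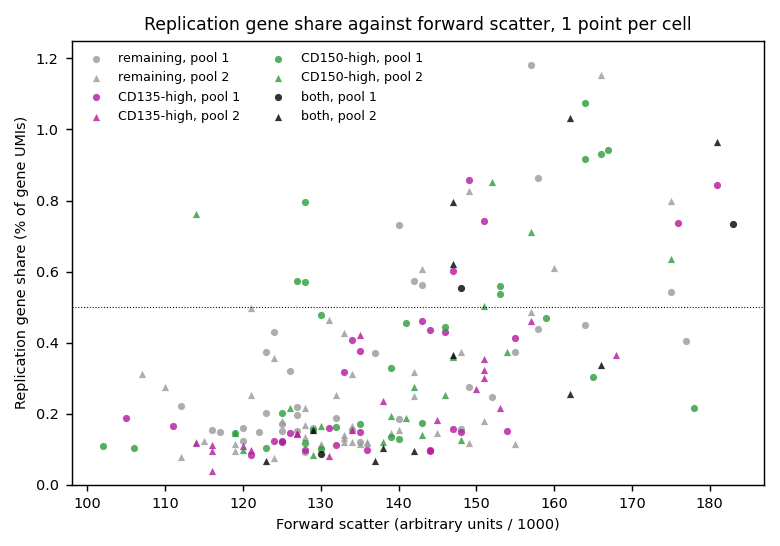
Replication share (percent of gene UMIs) against forward scatter (arbitrary units, divided by 1000), 1 point per cell, coloured by CD135 and CD150 class and shaped by pool, with a dotted line at 0.5%. Of the 36 cells above the line 28 are in the upper class of forward scatter, and 36 of the 64 cells of that class are not above it.

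Gene by gene the pattern was nearly uniform. Of 49 members with enough UMIs, 47 were at least 1.5-fold higher in the upper class and 0 were lower, where 10.3% of all 7329 genes tested were higher and 10.7% lower. The median log2 difference of the members tested was 1.63, against -0.02 over all genes tested. Of all 52 members, 49 had the same sign in both pools.

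All loading factors with enough UMIs, 10 of 10, were called higher. Cdt1, which brings the Mcm ring to origins, had 111.8 against 20.6 CPM, a log2 difference of 2.44 (1.77 to 3.18). It was found in 48 of 64 upper cells and 13 of 64 lower cells. Cdc6, its partner, had 40.0 against 8.255 CPM, a difference of 2.28 (1.21 to 3.55). Within the ring, whose subunits act in equal number, the differences were not equal. Mcm5 went from 40.2 to 203.3 CPM, a difference of 2.34 (1.85 to 2.86), and Mcm3 from 58.8 to 218.6 CPM, a difference of 1.89 (1.49 to 2.32). Mcm2 differed by 1.45 (1.05 to 1.87), Mcm6 by 1.41 (1.13 to 1.70), Mcm4 by 1.25 (0.87 to 1.65) and Mcm7 by 1.20 (0.94 to 1.47). For Mcm6 the cells of the lower class had a median of 1 UMI and at most 12, and those of the upper class a median of 6 and at most 26. Orc1 had 8 UMIs in the upper class and 0 in the lower.

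Helicase activation and its kinases were sparse, with 662 UMIs for 9 genes, and all 7 of the 7 with enough UMIs were called higher. Ccne2, the cyclin that drives entry into S phase with Cdk2, had the largest ratio of the group, with 57 UMIs in 25 upper cells against 3 UMIs in 3 lower cells, a log2 difference of 3.55 with a counting interval of 1.93 to 5.87. Gins4 had the smallest, 0.70 (-0.09 to 1.54).

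Of the polymerases, primase, clamp and clamp loader, 14 of 15 were called higher. Pclaf had the largest difference of all members, 172.2 against 14.4 CPM, a log2 difference of 3.58 (2.80 to 4.47), with 22 upper cells and 9 lower cells positive and at most 46 UMIs in 1 cell. Pcna had a median of 3 UMIs per cell and at most 16 in the lower class, a median of 9.5 and at most 67 in the upper class, and 244.5 against 658.3 CPM, a difference of 1.43 (1.22 to 1.64). Pola2, an accessory subunit of polymerase alpha, was the member of this group that was not called, at 0.47 (-0.08 to 1.06). The catalytic subunit Pola1 differed by 1.78 (1.27 to 2.33).

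Lig1, the ligase that joins Okazaki fragments, was among the stronger members, from 39.2 to 197.0 CPM, a difference of 2.33 (1.84 to 2.85), and all 4 genes of fragment joining and single-strand binding were called higher. So were all 6 genes of nucleotide supply. Rrm2, the regulated subunit of ribonucleotide reductase, had 74.98 against 9.29 CPM, a difference of 3.01 (2.04 to 4.18), and its partner Rrm1 142.3 against 37.1 CPM, a difference of 1.94 (1.43 to 2.49). Tk1, the thymidine kinase of S phase, had 92.8 against 13.4 CPM, a difference of 2.79 (1.97 to 3.73). Tyms, which makes thymidylate, differed by 1.803 (1.001 to 2.70).

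Of 5 genes of chromatin assembly, histone message and methylation upkeep, 4 were called higher. Hells, a chromatin remodeller, had 142.97 against 29.9 CPM, a difference of 2.26 (1.69 to 2.87). Chaf1b was the lowest of all members at 0.03 (-0.57 to 0.65), with 40.0 against 39.2 CPM, while Chaf1a of the same complex had 54 against 8 UMIs. Brca2, which protects stalled forks, differed by 2.02 (1.45 to 2.65) in all cells, but by 3.77 in pool 1 and 0.88 in pool 2.

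**Figure D3:**
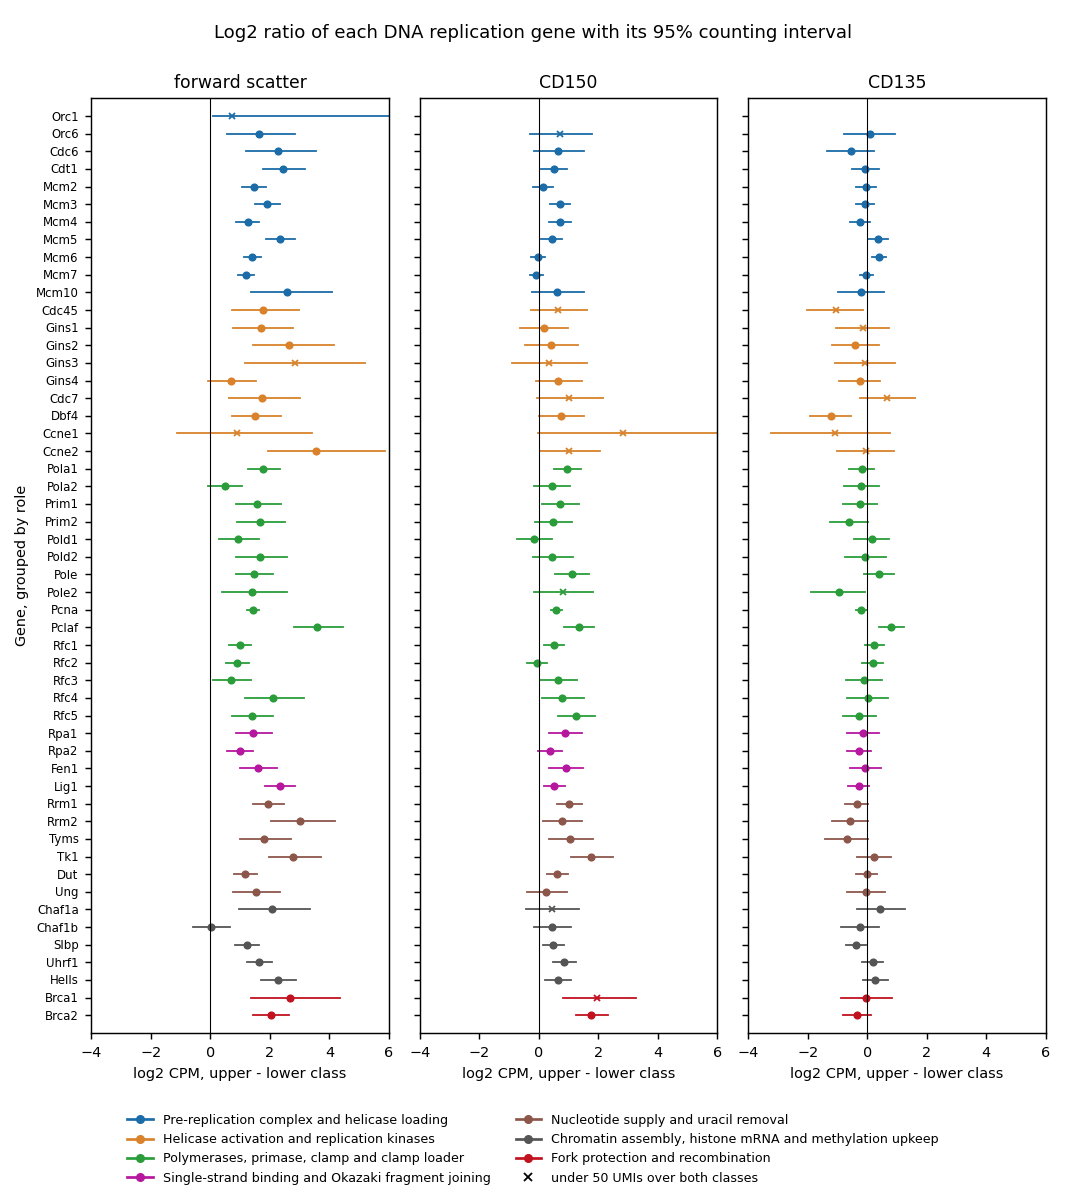
Log2 difference in CPM between the upper and lower class (horizontal axis) for each of 52 genes, grouped and coloured by role, for forward scatter, CD150 and CD135. Points are ratios, bars 95% counting intervals (drawn to the edge where longer), crosses genes under 50 UMIs, a class at 0 UMIs is set to 3 UMIs, and no point is drawn where both classes hold at most 3. For forward scatter nearly all points lie right of 0, for CD150 many do by less, and for CD135 the points lie on both sides.

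Because these genes moved together, their promoters were searched for 2 E2F-type motifs, TTTCCCGC and TTTGGCGC, on both strands. RefSeq (GRCm38.p6) gave promoters, 250 bases before to 50 bases after the start, for 44 of the 52 genes. Mcm4, Gins1, Gins2, Gins4, Ccne2, Prim2, Pole and Rfc2 were not matched. One of the motifs was in 14 of the 44 genes (31.8%) and in 1.798% of all 27025 genes in the table. The letters CCAAT were in 56.8% of the members and 41.1% of all genes, and the letters TTTGAA in 15.9% and 20.2%. The stretches below are those of Pclaf, Mcm5 and Hells, which are among the 8 clearest members by forward scatter, and of Mcm6 and Mcm3, which hold 2 matches each. Capitals mark the matches, and each line reads 5′ to 3′ on the strand of the gene.
Pclaf: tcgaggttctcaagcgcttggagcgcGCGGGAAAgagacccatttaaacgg
Mcm5: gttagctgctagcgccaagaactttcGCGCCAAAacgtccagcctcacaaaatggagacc
Hells: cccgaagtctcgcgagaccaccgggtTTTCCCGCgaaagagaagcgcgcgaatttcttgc
Mcm6: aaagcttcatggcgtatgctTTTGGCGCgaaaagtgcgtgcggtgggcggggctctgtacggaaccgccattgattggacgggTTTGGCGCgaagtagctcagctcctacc
Mcm3: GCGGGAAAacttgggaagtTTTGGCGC

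The stretches lie at chr9:65890292-65890342 (plus strand) for Pclaf, chr8:75109334-75109393 (plus) for Mcm5, chr19:38930902-38930961 (plus) for Hells, chr1:128359725-128359835 (minus) for Mcm6 and chr1:20820267-20820293 (minus) for Mcm3. Counted from the start site, the match began at -5 in Pclaf, -149.0 in Mcm5, -62 in Hells, -110 and -47 in Mcm6, and at 20 and 39 after the start in Mcm3. The other genes with a match were Mcm7, Brca2, Rfc3, Pold1, Gins3, Cdt1, Cdc6, Pole2 and Pola1. The 14 genes with a match had a median log2 difference of 1.96 between the forward scatter classes (0.70 to 3.58) and the 30 without a match 1.58 (0.03 to 3.01). The ranges overlapped almost wholly, and Rrm2, Tk1 and Lig1 held no match in this window. A match is a run of letters, and no binding was measured.

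CD150, a label of stem cells and of megakaryocyte and red cell progenitors, came with a smaller difference. The summed level was 2930, 3692 and 4294 CPM in the lower, middle and upper class, a log2 difference of 0.55 (0.49 to 0.61), with 0.51 in pool 1 and 0.59 in pool 2. The replication share ran from 0.0374% to 1.18% with a median of 0.160% in the lower class and from 0.0659% to 1.08% with a median of 0.255% in the upper class, so the ranges nearly coincided. The 1.18% in the lower class was that of the cell rich in B cell markers. Shares above 0.5% were seen in 4 of 64 lower and 20 of 63 upper cells. Of 42 members tested, 23 were called higher and 0 lower, against 7.79% and 6.06% of all genes. The median log2 difference of the members tested was 0.63, against -0.01 over all genes tested.

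Of the genes tested for CD150, 4 of 9 loading factors, 2 of 4 of helicase activation, 7 of 14 of the polymerase group, 2 of 4 of fragment joining and 2 of 4 of chromatin assembly were called higher. Nucleotide supply had 5 of 6 genes called, led by Tk1 with 70.9 against 20.9 CPM (1.76, 1.10 to 2.48), Tyms (1.06, 0.35 to 1.82) and Rrm1 (1.01, 0.60 to 1.44). Brca2 had 113.9 against 33.7 CPM, a difference of 1.76 (1.24 to 2.32), and about the same in both pools. Pole, the catalytic subunit of the leading strand polymerase, differed by 1.10 (0.54 to 1.69), and the clamp loader gene Rfc5 by 1.24 (0.63 to 1.89). Of the Mcm ring, Mcm3 and Mcm4 were called at 0.71 and 0.70, Mcm5 and Mcm2 were not, at 0.44 and 0.14, and Mcm6 and Mcm7 lay at -0.02 (-0.26 to 0.22) and -0.08 (-0.31 to 0.15). Pcna, at 0.58, missed the fold by less than its counting error. Pold1, a catalytic polymerase subunit, was the lowest at -0.15 (-0.73 to 0.43). The pools disagreed on Pclaf, at 0.16 in pool 1 and 3.39 in pool 2.

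Forward scatter and depth moved with CD150: the median forward scatter was 131000 in the lower and 141000 in the upper class, and the median depth was 16065 and 19396 UMIs. Within the lower, middle and upper class of forward scatter the log2 difference between the CD150 classes was 0.31 (0.15 to 0.47), 0.16 (0.01 to 0.30) and 0.23 (0.15 to 0.31), smaller than in all cells each time. The median shares there, CD150 upper against lower class, were 0.145% against 0.148%, 0.158% against 0.159% and 0.554% against 0.404%. At low and middle forward scatter the median cell was thus not higher in the CD150 upper class. Conversely, forward scatter kept a difference of 1.43 to 1.58 within the 3 classes of CD150, and of 0.88 to 2.18 within the classes of every one of the other 8 signals. Summed erythroid markers were 50.9 CPM in the lower and 566.1 CPM in the upper class of CD150, with medians per cell of 0 and 65.6 CPM. Neutrophil and monocyte markers were 695.9 and 472.2 CPM, B cell markers 155.6 and 23.6 CPM, and megakaryocyte markers 24.6 and 68.1 CPM. Without the 13 marker-rich cells the CD150 difference was 0.78.

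CD135, the label of lymphoid-primed progenitors, showed almost no difference in the summed level of the replication genes. The level was 3735, 3749 and 3590 CPM from the lower to the upper class, a log2 difference of -0.06 (-0.12 to 0.00), with -0.09 in pool 1 and 0.01 in pool 2. The medians of the share were 0.187%, 0.233% and 0.174%, and 12 of 63, 13 of 64 and 11 of 64 cells were above 0.5%. Of 45 members tested, 1 was called higher and 4 lower, against 7.90% and 10.4% of all genes, so the share of members called was at or below that of the background. Dbf4, the activator of the Cdc7 kinase, had the lowest ratio, 21.6 against 50.1 CPM, a log2 difference of -1.21 (-1.93 to -0.53), with similar values in both pools. Pole2, Tyms and Prim2 followed at -0.95, -0.68 and -0.61, the last 2 with intervals that span 0. Pclaf had the only called difference upward, 0.81 (0.38 to 1.24), but 1 cell held 22.9% of its UMIs, and it was found in 10 upper and 21 lower cells. Mcm6 differed by 0.39 (0.15 to 0.63) and Mcm5 by 0.37 (0.03 to 0.71), below the fold used.

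The CD135 classes were not alike in forward scatter. The upper class held 27 cells of high forward scatter against 18 in the lower class. Among cells of low, middle and high forward scatter the CD135 difference was -0.82 (-1.01 to -0.63), -0.42 (-0.55 to -0.28) and -0.09 (-0.17 to -0.02). The CD135 upper cells were thus lower in sum than the CD135 lower cells within each class of forward scatter. The summed levels were 1178 against 2078 CPM, 2241 against 2995 CPM and 5323 against 5680 CPM. The median shares were 0.119% against 0.149%, 0.148% against 0.173% and 0.413% against 0.467%. At low and middle forward scatter these medians lay closer in proportion than the sums, and the low class held only 18 upper and 24 lower cells. The mean of the log2 differences, -0.44, was computed after the data were seen. Without the cells with a CD127 signal above 2000 the CD135 difference in all cells was -0.29. Markers of other cell types also moved with CD135. In the lower and upper class summed erythroid markers were 693.6 and 38.3 CPM, neutrophil and monocyte markers 878.4 and 389.6 CPM, and megakaryocyte markers 75.9 and 9.99 CPM, with medians per cell of 66.97 and 0, 333.2 and 331.1, and 48.4 and 0 CPM. Without the 13 marker-rich cells the CD135 difference in all cells was -0.08. The part of these markers within the classes of forward scatter was not tested.

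The other 5 labels and side scatter ran from -0.32 to 0.75. Side scatter, which reflects granularity, had the second largest difference, 0.75 (0.68 to 0.81), with 0.60 and 0.96 in the 2 pools and 30 of 44 members higher and 0 lower, against 7.51% and 7.76% of all genes. Pclaf led at 148.1 against 37.3 CPM (1.99, 1.4997 to 2.51), followed by Tk1 at 1.78 and Fen1, the flap nuclease of Okazaki fragments, at 1.69. Within the classes of forward scatter it was 0.88, 0.10 and 0.27.

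CD127 had a difference of 0.61 (0.55 to 0.67), with 0.89 in pool 1 and 0.21 in pool 2, and 21 of 44 members higher and 0 lower, against 6.22% and 5.98% of all genes. Tk1 had 77.7 against 23.9 CPM (1.70, 1.08 to 2.37) and Ccne2 43 against 9 UMIs (2.00, 0.94 to 3.22), though Tk1 differed by 2.89 in pool 1 and 0.29 in pool 2. Part of this rested on few cells. The 14 cells with a CD127 signal above 2000 had 6762 CPM, a median share of 0.508% and 7 cells above 0.5%. The other 50 cells of the upper class had 3946 CPM and a median of 0.215%, and without the 14 the difference was 0.39. Within forward scatter classes it was 0.43, -0.55 and 0.41, so its sign was not the same throughout.

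CD11b had a difference of 0.42 (0.36 to 0.48) that came from pool 1, at 0.75, and not from pool 2, at -0.01, with 15 of 43 members higher and 0 lower, against 6.52% and 6.17% of all genes. CD16/32, the Fc gamma receptors, had 0.39 (0.33 to 0.45), with 0.49 and 0.22 in the pools, and 15 of 45 members higher and 1 lower, against 6.79% and 4.78%. Brca2 had the largest ratio for CD16/32, at 1.14, and Tk1 and Brca2 stood at 1.39 and 1.24 for CD11b. Within the low, middle and high class of forward scatter the difference was 0.31, 0.47 and -0.05 (-0.13 to 0.02) for CD11b and 0.21, 0.66 and -0.05 (-0.13 to 0.02) for CD16/32, so neither kept its sign in the high class. Pclaf had the lowest ratio for CD16/32 (-0.75, -1.15 to -0.35), with 20.8% of its UMIs in 1 cell. cKit, the stem cell factor receptor, had 0.33 (0.27 to 0.39), with 0.32 and 0.35 in the pools, and 12 of 45 members higher and 0 lower, against 9.40% and 6.15%, led by Brca2 at 1.27 and followed by Mcm4 at 0.70. The cKit difference was larger within the low and middle forward scatter classes, 0.68 and 0.90, than within the high one, 0.18. Without the 14 cells of highest CD127 signal it was 0.88, and the CD16/32 difference was 0.69.

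Sca-1 was the surface label with a clear difference in the other direction, at -0.32 (-0.38 to -0.26), with -0.22 and -0.49 in the pools. Of 47 members 0 were called higher and 12 lower, against 9.85% and 6.63% of all genes. Mcm2 had 89.4 against 149.2 CPM (-0.74, -1.10 to -0.39), the dUTPase Dut 88.5 against 142.3 CPM (-0.68, -1.05 to -0.33), and the primase subunit Prim2 26.04 against 49.7 CPM (-0.93, -1.61 to -0.29). The median share was 0.248% in the lower and 0.154% in the upper class of Sca-1. Within the classes of forward scatter the difference was -0.20, -0.60 and -0.02, and without the 14 cells of highest CD127 signal it was -0.20 in all cells.

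The design also allows cells to be grouped by CD135 and CD150 together. Cells in the upper class of 1 label and not of the other were taken as CD135-high (49 cells) or CD150-high (48 cells), 15 cells were in both upper classes, and 79 remained. These are ranks of the recorded signal and not the sort regions of the study. The CD150 signal had medians of 44.7, 69.7 and 110.0 in its lower, middle and upper class, and the upper class ran from 78.7 to 555.3. CD150-high is thus the upper part of this signal. Whether these cells form a separate CD150-positive population was not tested. The summed level was 3212 CPM in CD135-high, 4170 CPM in CD150-high, 3405 CPM in remaining and 4762 CPM in double-high cells, and the median share was 0.159%, 0.233%, 0.188% and 0.336%. CD150-high stood above CD135-high cells by 0.38 on the log2 scale (0.31 to 0.44), by 0.26 in pool 1 and 0.64 in pool 2. Of 41 members tested 15 were called higher in CD150-high cells and 0 lower, against 11.6% and 7.72% of all genes. Tyms had 42.6 against 14.3 CPM (1.57, 0.66 to 2.59), Brca2 1.33 and Tk1 1.15. At low, middle and high forward scatter the 2 groups differed by 0.96 (0.75 to 1.18), 0.03 (-0.12 to 0.18) and 0.33 (0.25 to 0.42).

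The share of cells called S phase differed little between these groups. A cell was called S phase when its score over 43 S phase genes, 22 of them members, was above 0 and above its score over 54 G2/M genes. Of all 191 cells 50 were in S phase (26.2%) and 30 in G2/M. S phase was called in 13 of 49 CD135-high cells (26.5%, Clopper-Pearson interval 14.9% to 41.1%), 14 of 48 CD150-high cells (29.2%, 16.95% to 44.1%), 18 of 79 remaining cells (22.8%, 14.1% to 33.6%) and 5 of 15 double-high cells (33.3%, 11.8% to 61.6%). The intervals overlapped widely, and a score within 0.05 of the threshold was found in 4, 6, 12 and 3 cells of these groups. With each cell thinned to 12147 UMIs, which left out 19 shallower cells, the shares were 33.3%, 36.96%, 31.4% and 42.9%. By pool they were 31.03% and 20% for CD135-high and 34.5% and 21.1% for CD150-high cells. Between the groups the S phase shares before thinning differed by less than the width of their counting intervals, and no test was run.

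A replication share above 0.5%, a level chosen after the data were seen, was found in 5 of 49 CD135-high cells (10.2%, 3.397% to 22.2%), 14 of 48 CD150-high cells (29.2%, 16.95% to 44.1%) and 11 of 79 remaining cells (13.9%, 7.16% to 23.5%). The contrast depended on that level: a share above 2 times the median was found in 24.5% of CD135-high, 37.5% of CD150-high and 24.1% of remaining cells. The 5 CD135-high cells were all of pool 1, and those of the CD150-high group were 9 of pool 1 and 5 of pool 2. Cells in S phase had shares from 0.299% to 1.15% with a median of 0.547%. Cells in G2/M had shares from 0.101% to 1.18% with a median of 0.192%. Cells in G1 had a median of 0.148% and at most 0.427%. The cell at 1.18% was called G2/M by a small margin, with a G2/M score of 0.538 and an S score of 0.524. High shares were thus not confined to S phase calls. Since the score uses members, these ranges describe the call.

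**Figure D4:**
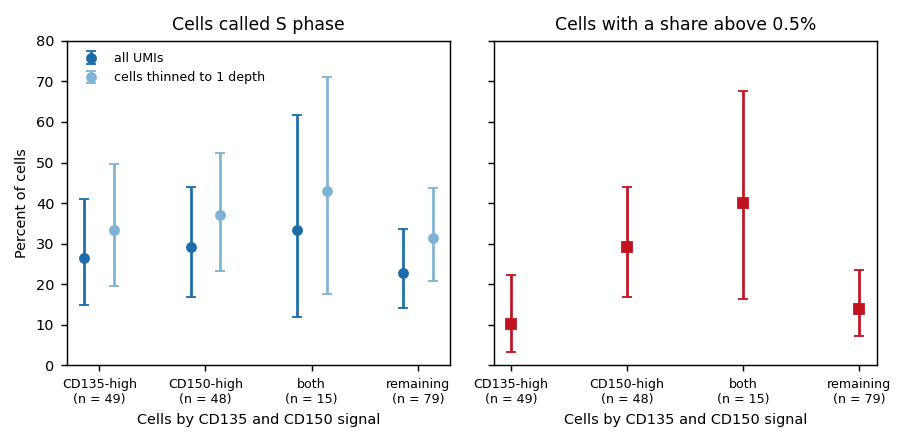
Percent of cells called S phase (left, with all UMIs and with cells thinned to 12147 UMIs, which leaves 42, 46, 14 and 70 cells) and percent of cells with a replication share above 0.5% (right) in the 4 groups by CD135 and CD150 signal. Bars are 95% Clopper-Pearson intervals; S phase lies between 22.8% and 33.3% before thinning, and the intervals overlap in both panels.

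Forward scatter separated S phase calls more. They made up 6 of 64 cells in the lower class (9.38%, 3.52% to 19.3%), 11 of 63 in the middle class (17.5%, 9.05% to 29.1%) and 33 of 64 in the upper class (51.6%, 38.7% to 64.2%), and 12%, 25% and 61.3% after thinning. G2/M calls numbered 9, 9 and 12 cells from the lower to the upper class. Each cell gets only 1 call, so a cell high in both scores can be called S phase. The calls thus do not show that G2/M genes were even across forward scatter, and 32 of 40 tested were higher in the upper class, against 10.3% of all genes. Across the surface labels the largest contrasts in S phase share, lower against upper class, were those of CD16/32, 21.9% against 39.7%, and Sca-1, 28.6% against 14.1%. Neither was graded, as the middle class had the lowest share for CD16/32, 17.2%, and the highest for Sca-1, 35.9%. From the lower to the upper class the shares were 17.2%, 31.3% and 30.2% for CD150 and 23.8%, 26.6% and 28.1% for CD135.

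Other genes of the pathway that are not members followed forward scatter less uniformly. Of 20 further origin, helicase and polymerase genes with enough UMIs, 12 were called higher and 1 lower, against 10.3% and 10.7% of all genes. The same background holds for the other forward scatter counts of this paragraph. Dna2, the nuclease-helicase of Okazaki fragments, differed by 3.18 and the licensing inhibitor Gmnn by 2.49, whereas the origin complex gene Orc4 was lower (-0.90, -1.45 to -0.35) and Orc3 and Orc5 lay at -0.07 and -0.13. Of 14 fork checkpoint genes 10 were called higher, Clspn at 3.21 among them, with Atr at -0.24. Of 9 further nucleotide supply genes 5 were higher and 1 lower: Samhd1, which degrades deoxynucleotides, at -0.71 (-1.05 to -0.37). Among 9 genes of the E2F and RB family 4 were higher and 1 lower. E2f1, an activator, had 45.1 against 8.255 CPM (2.45, 1.39 to 3.72) and E2f8, an atypical repressor, differed by 1.94, while the pocket protein Rbl2, associated with quiescence, was lower (-0.76, -1.18 to -0.34). For CD135 0 of the 9 were called higher and 1 lower, E2f8 at -1.22. This is near the share of all genes, 7.90% higher and 10.4% lower.

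The G2/M genes, none of them a member, were a second group that moved with several labels. For CD150, 22 of 34 with enough UMIs were called higher and 0 lower, against 7.79% and 6.06% of all genes, with a median of 1.08. For CD135, 1 of 35 was higher and 13 lower, against 7.90% and 10.4% of all genes, with a median of -0.41. For forward scatter 32 of 40 were higher and 0 lower, against 10.3% and 10.7% of all genes. Their median was 0.94, beside 1.63 for the replication genes tested. Of the 64 cells with the highest replication share 42 were also among those with the highest G2/M share.

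Among all genes that are not members, those that followed the replication share most clearly were Chek1, Cenph, Ccna2, Top2a, Rad54l and Rmi2, by a rule that took the interval farthest from 0. All are of the cell cycle or DNA repair. Top2a, the topoisomerase that untangles copied DNA, had 419.6 against 39.6 CPM (3.41, 2.95 to 3.91). In the other direction stood Ahnak, Hist1h2bc, Tcp11l2, Oasl2, Myof and Hacd4. Ahnak, a very large scaffold protein, had 6.38 against 84.1 CPM (-3.72, -4.83 to -2.77) and the histone gene Hist1h2bc 8.29 against 88.02 CPM (-3.41, -4.37 to -2.56).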

How the data were processed

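The authors deposited raw UMI counts of 192 index-sorted cells, with no normalization. Their aligner and counter are not given in the sources used. The submitters' processing notes name GRCh38, a human build, while the genes carry mouse identifiers, so the build used is not known. Symbols, overlaps and names came from GENCODE on GRCm38 by identifier.

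Members and lists were chosen with earlier results of these data known. Cells were kept from 20% of the pool median of gene UMIs. The 32 highest, middle and lowest cells of each pool by label value formed the classes, and UMIs were summed and divided by all gene UMIs, spike-ins left out. With 1 sample no test was run. Ratios have exact conditional binomial intervals and cell shares Clopper-Pearson intervals, both at 95%, and a class at 0 was set to 3 UMIs. Phases were scored with scanpy 1.11.5 on the log of counts scaled to 10000. The ratio script was checked on simulated counts. Doublets were not called, as cells were sorted singly. Named genes were those past 1.5-fold with at least 50 UMIs, the same sign in both pools and no cell above 20% of the UMIs, up to 6 per direction by interval, with a preset set of licensing, clamp and nucleotide genes and the extreme of each comparison. Gins4, Pola1, Pola2, Chaf1a, Hells and Brca2 for forward scatter and the examples from the other lists were named after their values were seen. Some genes of these lists are not reported here.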

Additional observations from a re-analysis of the deposited data

How the results depend on the processing

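No paired analysis was possible because the cells form 1 group. Of 170 alternative values, 99 stayed within the counting interval or, for counts, within 1.5 times, and 4 changed sign. One was CD11b in pool 2 alone, at -0.013 against 0.42. The other 3 were of CD135, whose interval spans 0, in pool 2 alone, without the cells of highest share and with 24 cells per pool in each class, given below. The cause was not tested.

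The log2 difference of the summed replication share moved as follows. In pool 1 alone it was 0.89 for CD127, -0.22 for Sca-1, 0.49 for CD16/32, 0.75 for CD11b, 1.65 for forward and 0.60 for side scatter. In pool 2 alone it was 0.015 for CD135, 0.21 for CD127, -0.49 for Sca-1, 0.22 for CD16/32, 1.43 for forward and 0.96 for side scatter. As a mean of the cells' own shares it was -0.12 for CD135, 0.50 for CD127, -0.40 for Sca-1, 0.41 for cKit and 1.48 for forward scatter. Without the 3 cells of highest share in each pool it was 0.0091 for CD135, 0.46 for CD127, -0.45 for Sca-1, 0.46 for cKit, 0.66 for CD11b and 1.39 for forward scatter. With thinned cells it was -0.17 for CD135, 0.45 for CD127, -0.43 for Sca-1, 0.42 for cKit, 0.53 for CD16/32 and 1.44 for forward scatter. With 24 cells per pool in each class it was 0.087 for CD135, 0.71 for CD150, -0.19 for Sca-1, 0.32 for CD16/32, 0.36 for CD11b, 1.68 for forward and 1.01 for side scatter. Without cells above 2000 of CD127 it was -0.29 for CD135, 0.66 for CD150, 0.39 for CD127, -0.20 for Sca-1, 0.88 for cKit, 0.69 for CD16/32, 0.61 for CD11b, 1.46 for forward and 0.97 for side scatter.

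A further set of alternatives was chosen after seeing the data. As a mean within forward scatter classes the difference was -0.44 for CD135, 0.23 for CD150, 0.10 for CD127, 0.59 for cKit, 0.27 for CD16/32, 0.24 for CD11b and 0.42 for side scatter. Without marker-rich cells it was 0.78 for CD150, 0.51 for cKit and 0.90 for side scatter. Without Pcna all 9 stayed within their intervals.

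At an S score above 0.1 the S phase share was 12.2% in CD135-high, 20.8% in CD150-high and 15.2% in remaining cells, so that CD135-high cells lay below the remaining ones. With the members taken out of the S list it was 40.8%, 47.9% and 32.9%. At 2-fold the members called in either direction were 1 for CD135, 7 for CD150, 12 for CD127, 1 for Sca-1, 1 for cKit, 2 for CD16/32, 5 for CD11b, 41 for forward and 16 for side scatter. With at least 100 UMIs they were 1 for CD135, 16 for CD150, 16 for CD127, 5 for Sca-1, 6 for cKit, 11 for CD16/32, 9 for CD11b, 32 for forward and 18 for side scatter. No share of all genes is given at these 2 settings, so the counts show only how they change with the threshold. Most members have a median of 0 or 1 UMI per cell, so single cells cannot be read gene by gene.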
